A study of Mus musculus with 30 samples.

Results

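Per1, Noct, Usp2, Nfil3 and Bhlhe40 are 5 genes tied to the circadian clock that also answer acute signals such as feeding, cAMP and glucocorticoid hormone. They were taken by gene symbol from the 8996 genes that the arrays measured in mouse liver, and each of the 5 was represented by 1 probe. The choice rested on earlier results of these data, in which all 5 were higher in male mice given a chicory root decoction called G35 than in their water controls. Values that involve the male G35 livers or the male controls of that experiment are therefore given as a description without a test. The tests concern the other livers. Nfil3 was also known to differ when G35 was averaged over the sexes, so its values in female G35 livers are no independent evidence either.

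The clock of a liver cell runs on a feedback loop in which the activators CLOCK and BMAL1 drive the genes of their own repressors, and output genes follow with a daily rhythm. Per1 encodes a repressor of that loop, and its promoter responds within the hour to cAMP and glucocorticoid signals, which lets feeding and stress shift the liver clock. Bhlhe40 (also called DEC1) encodes a repressor that binds E-box sites, the sites of CLOCK and BMAL1. Nfil3 (also called E4BP4) encodes a repressor that binds D-box sites, where it opposes the activators Dbp, Tef and Hlf. Noct encodes nocturnin, a rhythmic enzyme linked to lipid metabolism, and Usp2 encodes a deubiquitinase with a strong daily rhythm in liver that acts on clock proteins. All of these transcripts change with the time of day, and the labels used here give no hour of tissue collection.

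The promoters of 4 members were found in RefSeq's table (GRCm38.p6), with a pair of starts for Per1, and Bhlhe40 is named only. The 250 bases before each start were searched on both strands for the E-box CACGTG, the full cAMP element TGACGTCA, its short form TGACG, the palindromic glucocorticoid response element, the D-boxes TTATGTAA and TTACGTAA, and the nuclear receptor site AGGTCA. The short cAMP form lies within the full one. The windows of Per1 and Nfil3 are shown because they are the ones that held any of these letters. Capitals mark the matches, and a match to the other strand is shown as its reverse complement.
Per1, start 1: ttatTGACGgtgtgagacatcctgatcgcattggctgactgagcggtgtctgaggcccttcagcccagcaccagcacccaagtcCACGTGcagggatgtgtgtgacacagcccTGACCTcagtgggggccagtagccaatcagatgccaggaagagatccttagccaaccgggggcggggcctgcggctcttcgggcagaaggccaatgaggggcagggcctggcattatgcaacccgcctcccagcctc
Per1, start 2: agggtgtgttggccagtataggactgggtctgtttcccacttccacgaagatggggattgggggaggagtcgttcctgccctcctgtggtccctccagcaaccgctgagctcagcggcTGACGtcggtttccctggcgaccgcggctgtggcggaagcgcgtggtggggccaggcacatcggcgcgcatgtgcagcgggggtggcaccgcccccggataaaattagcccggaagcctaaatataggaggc
Nfil3: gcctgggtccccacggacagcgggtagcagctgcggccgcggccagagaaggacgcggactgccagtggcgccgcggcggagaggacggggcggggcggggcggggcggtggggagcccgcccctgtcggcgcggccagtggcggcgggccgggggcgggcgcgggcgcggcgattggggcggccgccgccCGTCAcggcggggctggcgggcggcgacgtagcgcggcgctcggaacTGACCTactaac

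The Per1 window at start 1 (chr11:69098699-69098948, plus strand) held TGACG beginning 246 bases before the start, CACGTG at 166 bases and AGGTCA on the other strand at 137 bases. The window at start 2 of Per1 (chr11:69099902-69100151, plus strand) held TGACG at 132 bases. The Nfil3 window (chr13:52981040-52981289, minus strand) held TGACG on the other strand at 59 bases and AGGTCA on the other strand at 12 bases. The windows of Noct (chr3:51224197-51224446, plus strand) and Usp2 (chr9:44084670-44084919, plus strand) held none of these letters. Of 32851 RefSeq windows of the same length, 17.8% held TGACG, 14% AGGTCA and 6.02% CACGTG. The full cAMP element was in 1.55% of windows, TTATGTAA in 0.819%, TTACGTAA in 0.113% and the glucocorticoid element in 0.00913%. A match describes the letters only.

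Mice were 8 weeks old at the start and were gavaged every day for 30 days with 500 µl, beside standard chow. In the chicory experiment the gavage of males and females held a decoction of root flour of the genotype G35 or G12, with 10 mg of root powder a day for each mouse, and the control 1 mice got water. In the inulin experiment, run at another period, a daily 6.9 mg of inulin, the storage fructan of chicory, was given at a dose set to the inulin content of G35, and the control 2 mice got water. There were 3 mice in each of 10 groups, 1 for every gavage in either sex, and RNA from the core of the left liver lobe of each mouse was hybridized to 1 one-colour array. The labels name no strain, and all mice were gavaged, so no group shows an undisturbed liver. Values below are log2 of normalized intensity, groups are compared as differences of their mean log2 values, and calls are adjusted p-values under 0.05 in limma's test over all 8996 genes.

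The hepatocyte markers (7 of 8 measured) lay at a median percentile of 99.3 of all genes. Median raw intensity per array ran from 141 to 511. There were 10 slides, 5 per experiment, and among males every control array lay at slide position 4, where no treated male array lay, so that position and gavage cannot be told apart in males. Transcripts of pancreatic acinar cells (2 of 7 markers measured) varied widely, with a summed log2 level of 11.93 to 15.99 in male G12 livers and 9.19 to 9.27 in male control 1 livers. In females this level was 9.49 to 15.22 with G35, 9.82 to 14.95 with G12 and 9.17 to 12.33 in control 1. The array of female G12 replicate 2 carried a patch of low signal. The 19 probes around the Usp2 probe, with the array layout inferred from the data, lay at a median of -0.84 log2 against the other arrays there, while on the other 29 arrays this median was -0.27 to 0.27. Around the other 4 members the same array stood at -0.10 to 0.36. The value of 0.36 was around Per1, where the other 29 arrays ran from -0.53 to 0.35. Female control 1 replicates 1 to 3 stood at 0.22, 0.024 and 0.35 around that probe. Other arrays had lesser low areas at other members, the lowest being -0.62 around Nfil3 on female control 2 replicate 1 and -0.53 around Per1 on male control 2 replicate 1. Log2 differences of more than 2.5 below the other arrays were found for 151 probes on the array with the patch and for up to 217 on another array. Comparisons of Usp2 in female G12 livers are given with and without the array with the patch.

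Raw intensities of the 5 members ran from 166 in the dimmest Bhlhe40 reading to 2388 in the brightest Noct reading, and none was near the scanner maximum.

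**Figure D1:**
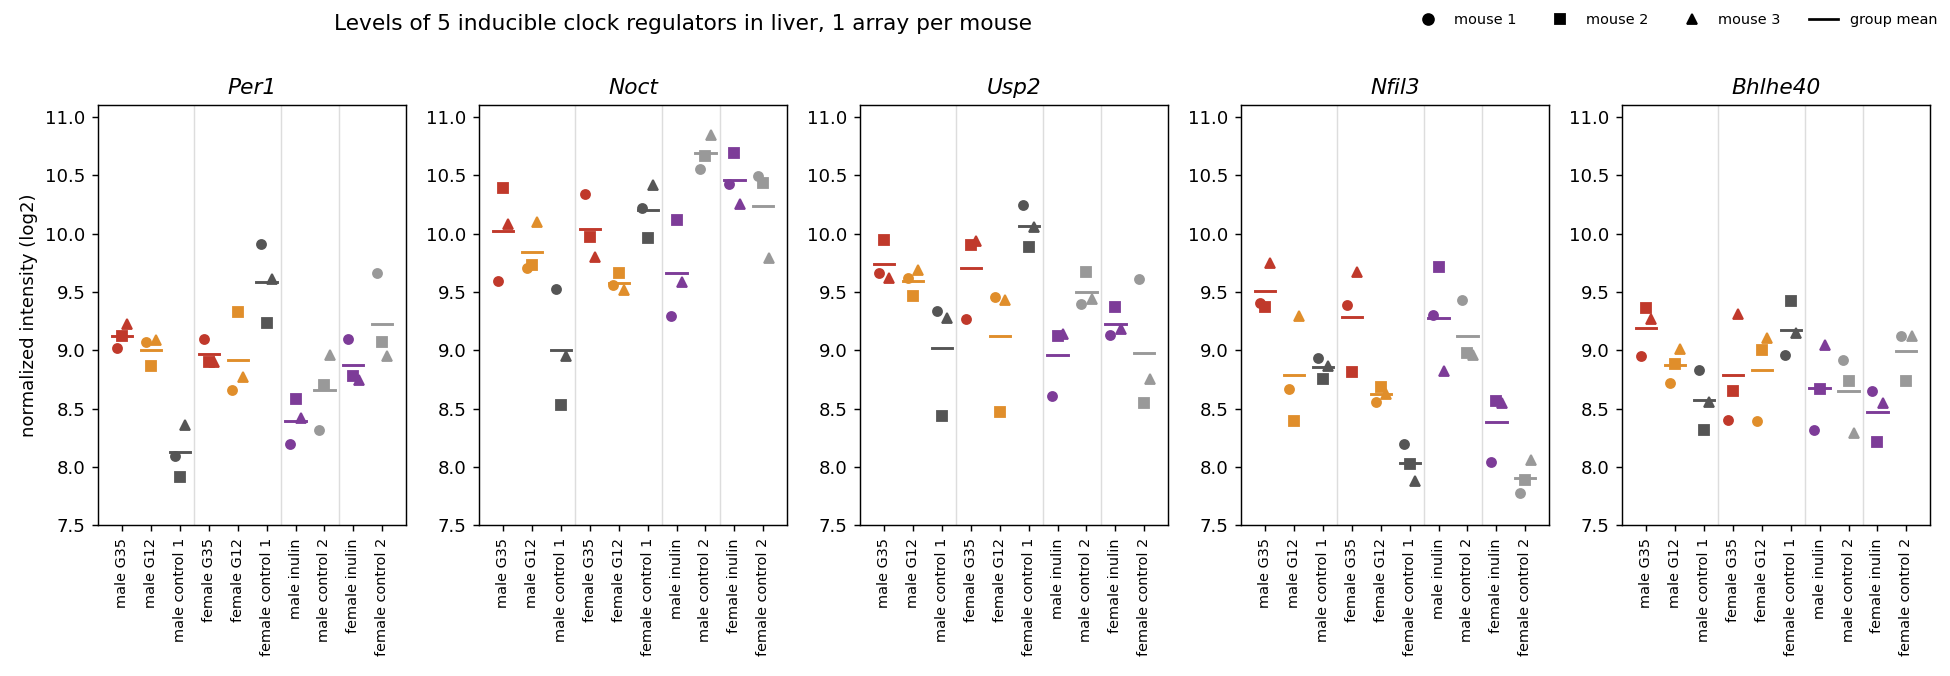
Normalized log2 intensity of the 5 genes in each of 30 mice (points, shaped by mouse number within the group) by group, with the group mean as a bar. Male control 1 livers lie lowest for Per1 and Noct, female control 1 livers highest for Per1 and Usp2, and male G35 livers highest for Nfil3 and Bhlhe40.

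Per1 levels spanned 1.46 log2 between the group means. The order was female control 1 (9.58 ± 0.34, SD, n = 3 in each group), female control 2 (9.23 ± 0.38), male G35 (9.12 ± 0.10), male G12 (9.01 ± 0.12), female G35 (8.97 ± 0.12), female G12 (8.92 ± 0.35), female inulin (8.87 ± 0.20), male control 2 (8.66 ± 0.32), male inulin (8.40 ± 0.19) and male control 1 (8.12 ± 0.23). Of the 9 steps between neighbours in this order, 1 was larger than the larger SD of the pair, that between male inulin and male control 1.

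Noct levels spanned 1.69 log2. Male control 2 livers were highest (10.69 ± 0.15), followed by female inulin (10.46 ± 0.22), female control 2 (10.24 ± 0.39), female control 1 (10.20 ± 0.23), female G35 (10.04 ± 0.28), male G35 (10.02 ± 0.40), male G12 (9.85 ± 0.22), male inulin (9.67 ± 0.42), female G12 (9.58 ± 0.07) and male control 1 (9.00 ± 0.50). The first and the last of the 9 steps exceeded the larger SD of their pair. The male controls of the 2 experiments thus stood at opposite ends for this gene.

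Usp2 was highest in female control 1 livers (10.06 ± 0.18), above male G35 (9.74 ± 0.18), female G35 (9.70 ± 0.37), male G12 (9.59 ± 0.11) and male control 2 (9.50 ± 0.15). The other 5 groups lay lower, at 9.23 ± 0.13 in female inulin, 9.12 ± 0.56 in female G12, 9.02 ± 0.50 in male control 1, 8.97 ± 0.56 in female control 2 and 8.96 ± 0.30 in male inulin livers. The steps below female control 1 and below male control 2 exceeded the larger SD. The female G12 mean includes the array with the patch, at 8.47, beside 9.46 and 9.43 in the other mice.

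Nfil3 was highest in male G35 (9.51 ± 0.21) and female G35 livers (9.29 ± 0.44), then in male inulin (9.28 ± 0.44), male control 2 (9.12 ± 0.26), male control 1 (8.85 ± 0.09) and male G12 livers (8.79 ± 0.46). Below these came female G12 (8.62 ± 0.06), female inulin (8.39 ± 0.30), female control 1 (8.03 ± 0.16) and female control 2 livers (7.91 ± 0.14). The steps between male control 2 and male control 1, and between female inulin and female control 1, exceeded the larger SD. Bhlhe40 varied least, from 9.20 ± 0.21 in male G35 to 8.47 ± 0.23 in female inulin livers, and 0 of its 9 steps exceeded the larger SD.

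In males of the chicory experiment, which the members were chosen on, all 5 genes were higher in G35 livers than in control 1 livers, in every mouse. G12 livers were higher than control 1 livers for Per1, Noct and Usp2 in every mouse, but not for Nfil3. These differences are descriptions without a test. Groups that did not overlap were found for 13% of all genes with G35 (6.48% higher) and for 10.2% with G12 (5.6% higher).

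Per1 stood at 9.02, 9.13 and 9.22 in male G35 livers and at 9.07, 8.87 and 9.09 in male G12 livers, against 8.10, 7.91 and 8.36 in male control 1 livers. The difference was 1.00 ± 0.20 (SE) with G35, a 2.00-fold level, and 0.88 ± 0.20 with G12. The 3 control livers lay below all 6 chicory livers for this repressor of the clock loop.

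Noct stood at 9.59, 10.39 and 10.08 in male G35 livers and at 9.70, 9.73 and 10.10 in male G12 livers, against 9.52, 8.54 and 8.95 in male control 1 livers. The difference was 1.02 ± 0.24 with G35 and 0.84 ± 0.24 with G12. On the 3 slides that held both groups the G35 difference was 0.070, 1.13 and 1.85, so that replicate 1 of the controls came close to the lowest G35 liver.

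Usp2 stood at 9.66, 9.95 and 9.62 in male G35 livers and at 9.62, 9.47 and 9.69 in male G12 livers, against 9.34, 8.44 and 9.28 in male control 1 livers. The difference was 0.72 ± 0.27 with G35 and 0.57 ± 0.27 with G12. Replicate 2 of the controls was the lowest of these livers for Per1, Noct, Usp2 and Bhlhe40, and the lowest control for Nfil3.

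Nfil3 stood at 9.41, 9.37 and 9.75 in male G35 livers and at 8.67, 8.40 and 9.29 in male G12 livers, against 8.94, 8.75 and 8.87 in male control 1 livers. The difference was 0.65 ± 0.23 with G35 and -0.068 ± 0.23 with G12, and the G35 livers lay above the G12 livers without overlap, by 0.72 ± 0.23. Groups that did not overlap were found for 8.94% of all genes between the chicory genotypes in males. Bhlhe40 stood at 8.95, 9.37 and 9.27 in male G35 livers and at 8.72, 8.88 and 9.01 in male G12 livers, against 8.84, 8.32 and 8.55 in male control 1 livers, a difference of 0.63 ± 0.23 with G35 and 0.30 ± 0.23 with G12. Only the G35 livers cleared the controls for this E-box repressor.

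Since the G35 and control 1 males did not overlap for any member, all 5 differences had to point the same way on each of the 3 slides that held both groups. The slides therefore add no support. Over all genes, 1 (0.0111%) was called for G35 in males and 0 for G12 in males.

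**Figure D2:**
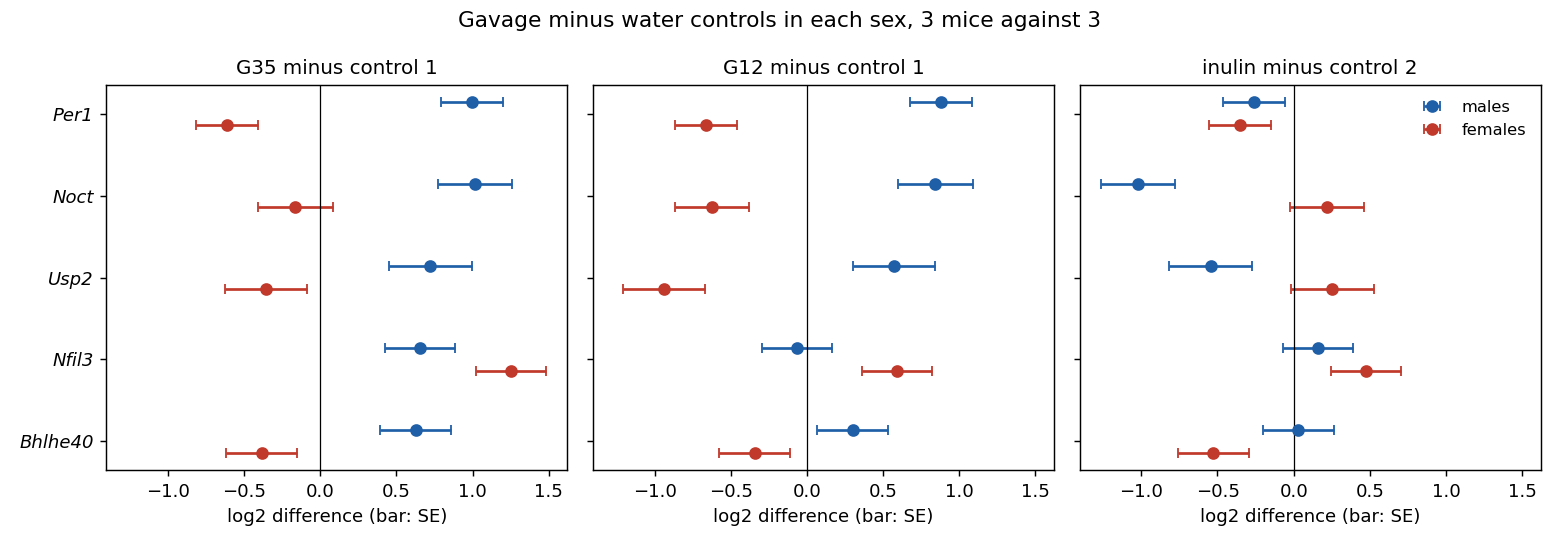
Difference in mean log2 level between gavaged and water control livers, with its SE from limma's fit, for males and females (3 mice against 3). Per1, Noct and Usp2 lie above 0 in males and below 0 in females with either chicory decoction, and Nfil3 lies above 0 in both sexes with G35.

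Female livers of the same experiment show whether the decoctions went with the same 5 genes in the other sex. Their means did not all point the way of the males. With G35, Nfil3 was higher, by 1.25 ± 0.23, while Per1, Noct, Usp2 and Bhlhe40 had lower means. None of the 5 was called for G35 or for G12, against 0 genes of all tested with G35 (724 at an unadjusted p under 0.05) and 7 (0.0778%) with G12.

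Nfil3 stood at 9.39, 8.81 and 9.67 in female G35 livers and at 8.56, 8.69 and 8.62 in female G12 livers, against 8.20, 8.02 and 7.88 in female control 1 livers. Every chicory liver was above every control liver. The G35 difference of 1.25 ± 0.23 (2.39-fold, 95% interval 0.78 to 1.73) had an adjusted p of 0.0587 in limma's test, ranked 2 of all 8996 genes. It was called with slide as a random block (adjusted p = 0.0337). It was not called with slide as a fixed block (1.19 ± 0.30, adjusted p = 0.0657) or with the replicate block (limma, adjusted p = 0.09995). Over 12 settings, single arrays left out aside, limma's adjusted p ran from 0.0337 to 0.988. These livers entered the average over the sexes in which Nfil3 was already known to differ. Its p-values and rank here are therefore no independent evidence. On the 1 slide that held both groups the difference was 0.90. Without female G35 replicate 2, the lowest of its group, limma's adjusted p was 0.0189, and without female control 1 replicate 2 it was 0.0481, while leaving out other single arrays gave up to 0.429. The G12 difference was 0.59 ± 0.23 (limma, adjusted p = 0.332).

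Per1 stood at 9.10, 8.90 and 8.90 in female G35 livers and at 8.66, 9.32 and 8.77 in female G12 livers, against 9.91, 9.23 and 9.61 in female control 1 livers. The G35 livers lay below the controls without overlap, by -0.62 ± 0.20 (limma, adjusted p = 0.384), and the G12 livers overlapped them, at -0.66 ± 0.20 (limma, adjusted p = 0.259). Per1 and Nfil3 were the members whose G35 and control livers did not overlap, in a comparison where 10.5% of all genes did not overlap.

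Noct stood at 10.34, 9.97 and 9.80 in female G35 livers and at 9.56, 9.66 and 9.52 in female G12 livers, against 10.22, 9.96 and 10.42 in female control 1 livers. The G12 livers lay below the controls without overlap, by -0.62 ± 0.24 (limma, adjusted p = 0.332). The G35 livers overlapped them, at -0.16 ± 0.24.

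Usp2 stood at 9.27, 9.90 and 9.94 in female G35 livers and at 9.46, 8.47 and 9.43 in female G12 livers, against 10.24, 9.89 and 10.06 in female control 1 livers. The G12 difference was -0.94 ± 0.27 (0.52-fold, limma, adjusted p = 0.233). It was called only with slide in the model, at -1.13 ± 0.25 with slide as a fixed block (limma, adjusted p = 0.0241, where 4.55% of all genes were called) and at an adjusted p of 0.0471 with slide as a random block. On the 2 slides that held both groups it was -1.41 and -0.78. The groups did not overlap, so the slide values had to share a sign and add no support. The value of 8.47 is that of the array with the patch of low signal at this probe. Without that array the difference was -0.62 without slide and -0.89 with slide, with limma's adjusted p at 0.594 and 0.147, and the remaining G12 livers still lay below all controls. The call with slide also ended without female control 1 replicate 2 (limma, adjusted p = 0.0781).

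With slide in the model and without the array that carried the patch, Per1 was called in place of Usp2, at -1.19 (limma, adjusted p = 0.00968), and without female control 1 replicate 1 the Per1 value with slide was 0.050. On the 2 slides that held both groups, the Per1 difference with G12 was 0.093 and -1.25. The Per1 value with G12 thus depended on which female arrays entered the fit. The array with the patch was high around the Per1 probe, at 0.36 log2, while female G12 replicates 1 and 3 stood at -0.28 and -0.16 there. Female control 1 replicate 1, on the same slide as female G12 replicate 1, stood at 0.22. The part of these surroundings in the Per1 values, with or without the array with the patch, was not tested.

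Bhlhe40 stood at 8.41, 8.66 and 9.32 in female G35 livers and at 8.40, 9.00 and 9.10 in female G12 livers, against 8.96, 9.43 and 9.15 in female control 1 livers. The differences were -0.38 ± 0.23 with G35 and -0.34 ± 0.23 with G12, with overlapping groups. Noct, Usp2 and Nfil3 were the members whose G12 and control livers did not overlap, in a comparison where 10.4% of all genes did not overlap.

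Between the chicory genotypes in females, G35 livers had higher means than G12 livers for Nfil3 (0.66 ± 0.23), Usp2 (0.58 ± 0.27), Noct (0.46 ± 0.24) and Per1 (0.048 ± 0.20) and a lower mean for Bhlhe40 (-0.042 ± 0.23). Nfil3 and Noct did not overlap between the genotypes, in a comparison where 5.48% of all genes did not overlap. The Usp2 value was 0.26 without the array with the patch. None was called, nor was any of the 8996 genes (299 at an unadjusted p under 0.05, limma). The female G35 values of Nfil3 were part of the average over the sexes in which it was already known to differ. In males, described above, the genotypes also lay furthest apart for Nfil3. The male G35 livers entered the choice of the members, so this adds no support.

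The endothelial markers (5 of 6 measured) had a summed log2 level of 10.63 to 10.89 in female G35 and 10.48 to 10.66 in female G12 livers, against 10.83 to 11.24 in female control 1 livers. In bulk tissue fewer cells of a type and less RNA per cell cannot be told apart, and the part of these markers in the values above was not tested. The same holds for the pancreatic acinar transcripts, which were high in some chicory livers of both sexes.

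The inulin experiment asks whether the fructan of the roots alone, at the dose matched to G35, went with these genes. Noct was lower in male inulin livers than in male control 2 livers, by -1.02 ± 0.24 (0.49-fold), with no call, and Usp2 was lower by -0.55 ± 0.27. In females neither was lower. None of the 5 members was called in either sex or averaged over the sexes, nor was any of the 8996 genes (186 in males, 327 in females and 178 averaged at an unadjusted p under 0.05, limma).

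Noct stood at 9.30, 10.12 and 9.58 in male inulin livers, against 10.55, 10.67 and 10.84 in male control 2 livers, and at 10.42, 10.69 and 10.26 in female inulin livers, against 10.50, 10.43 and 9.79 in female control 2 livers. In males the groups did not overlap. The male difference ranked 4 of all genes by p (limma, adjusted p = 0.756 without slide, 0.165 with slide as a fixed block and 0.121 as a random block) and was -0.97, -1.37 and -0.72 on the 3 slides. Without overlap the slide values had to share a sign, so they add no support. In females the groups overlapped, with a difference of 0.22 ± 0.24. The inulin difference in females minus that in males was 1.24 ± 0.35 for Noct, which was not called (limma, adjusted p = 1.00, unadjusted p = 0.0015).

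Usp2 stood at 8.61, 9.12 and 9.14 in male inulin livers, against 9.40, 9.67 and 9.44 in male control 2 livers, and at 9.13, 9.37 and 9.19 in female inulin livers, against 9.61, 8.55 and 8.76 in female control 2 livers. The males did not overlap and the females did, with a female difference of 0.25 ± 0.27. Noct and Usp2 were the members that did not overlap in males, in a comparison where 7.94% of all genes did not overlap.

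Per1 stood at 8.19, 8.58 and 8.42 in male inulin livers, against 8.32, 8.70 and 8.96 in male control 2 livers, and at 9.10, 8.78 and 8.74 in female inulin livers, against 9.66, 9.07 and 8.96 in female control 2 livers. The differences of -0.26 ± 0.20 in males and -0.35 ± 0.20 in females came with overlapping groups. Per1 was the member with the most alike inulin differences in the 2 sexes, -0.090 ± 0.29 apart (female minus male).

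Nfil3 stood at 9.30, 9.71 and 8.82 in male inulin livers, against 9.43, 8.98 and 8.96 in male control 2 livers, and at 8.04, 8.56 and 8.55 in female inulin livers, against 7.78, 7.89 and 8.06 in female control 2 livers. The differences were 0.16 ± 0.23 in males and 0.48 ± 0.23 in females, with overlapping groups.

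Bhlhe40 stood at 8.32, 8.67 and 9.05 in male inulin livers, against 8.91, 8.74 and 8.29 in male control 2 livers, and at 8.65, 8.21 and 8.54 in female inulin livers, against 9.13, 8.74 and 9.12 in female control 2 livers. The male difference was 0.032 ± 0.23. In females it was -0.53 ± 0.23, and Bhlhe40 was the 1 member that did not overlap there, in a comparison where 8.14% of all genes did not overlap. The erythroid markers (5 of 6 measured) had a summed log2 level of 14.62 to 15.15 in female inulin livers, against 15.57 to 16.09 in female control 2 livers, and their part in the female values was not tested.

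Sex differences were tested in the inulin experiment, where control 2 and inulin were averaged (6 females against 6 males). Nfil3 was lower in females and Per1 higher, and these 2 of the 5 members were called, where 10.9% of all genes were called. Nfil3 had its lowest, median and highest female values at 7.78, 8.05 and 8.56, against 8.82, 9.14 and 9.71 in males, so that every female liver was below every male liver. The difference was -1.05 ± 0.16 (0.48-fold, limma, adjusted p = 0.000138). Only 1 slide held both sexes, and the difference there was -1.56. With slide as a fixed block it was -1.37 ± 0.38 (limma, adjusted p = 0.0530), and with slide as a random block the adjusted p was 0.00138. Without female control 2 replicate 1, whose array was low around this probe, it was -1.02 (limma, adjusted p = 0.000433).

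Per1 had its lowest, median and highest female values at 8.75, 9.01 and 9.66, against 8.19, 8.50 and 8.96 in males, with some overlap. The difference was 0.52 ± 0.14 (1.44-fold, limma, adjusted p = 0.0215) and 0.89 on the slide with both sexes. The call ended with slide as a fixed block (limma, adjusted p = 0.135), and when female inulin replicate 1, male inulin replicate 1 or male control 2 replicate 1 was left out (limma, adjusted p = 0.0567, 0.0580 and 0.0704). Around the Per1 probe, male control 2 replicate 1 and male inulin replicate 3 were low, at -0.53 and -0.32. The other arrays of this experiment stood at -0.12 to 0.13 there, and the part of these surroundings in the Per1 difference was not tested. Noct, Usp2 and Bhlhe40 differed by 0.17 ± 0.17, -0.13 ± 0.19 and 0.069 ± 0.16 between the sexes and were not called.

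Among the livers given G12, female means were below male means for all 5 members, by -0.036 ± 0.23 for Bhlhe40 to -0.47 ± 0.27 for Usp2, and none was called (limma), where 1.19% of all genes were called (2.75% with the replicate block). The Usp2 value includes the array with the patch. Without that array it was -0.14, and with slide as a fixed block it was -0.70 with all arrays and -0.39 without that array.

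The water controls of the 2 experiments show how far groups with the same gavage stood apart. In females, Usp2 was lower in control 2 than in control 1 livers, by -1.09 ± 0.27 (limma, adjusted p = 0.0165), and it was the 1 member called, where 7.75% of all genes were called. It stood at 9.61, 8.55 and 8.76 in control 2 livers, against 10.24, 9.89 and 10.06 in control 1 livers. The probes around Usp2 stood at 0.056, -0.27 and -0.23 on these control 2 arrays, against 0.035, 0.19 and -0.15 on the control 1 arrays. The part of these surroundings in the Usp2 difference was not tested. The call ended without female control 1 replicate 1, female control 2 replicate 2 or female control 2 replicate 3 (limma, adjusted p = 0.0624, 0.0707 and 0.0556) and in a fit of these 6 arrays alone (adjusted p = 0.219). In males, given without a test, control 2 was above control 1 by 1.69 for Noct, 0.54 for Per1, 0.48 for Usp2, 0.27 for Nfil3 and 0.078 for Bhlhe40. The Noct difference between these water-gavaged groups was larger than that of any member between a gavage and its own controls. It holds the male control 1 livers, whose values entered the choice of Noct, so its size is no fair measure. In females the Noct difference between the controls was 0.038 ± 0.24. Experiment and slides cannot be told apart here.

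**Figure D3:**
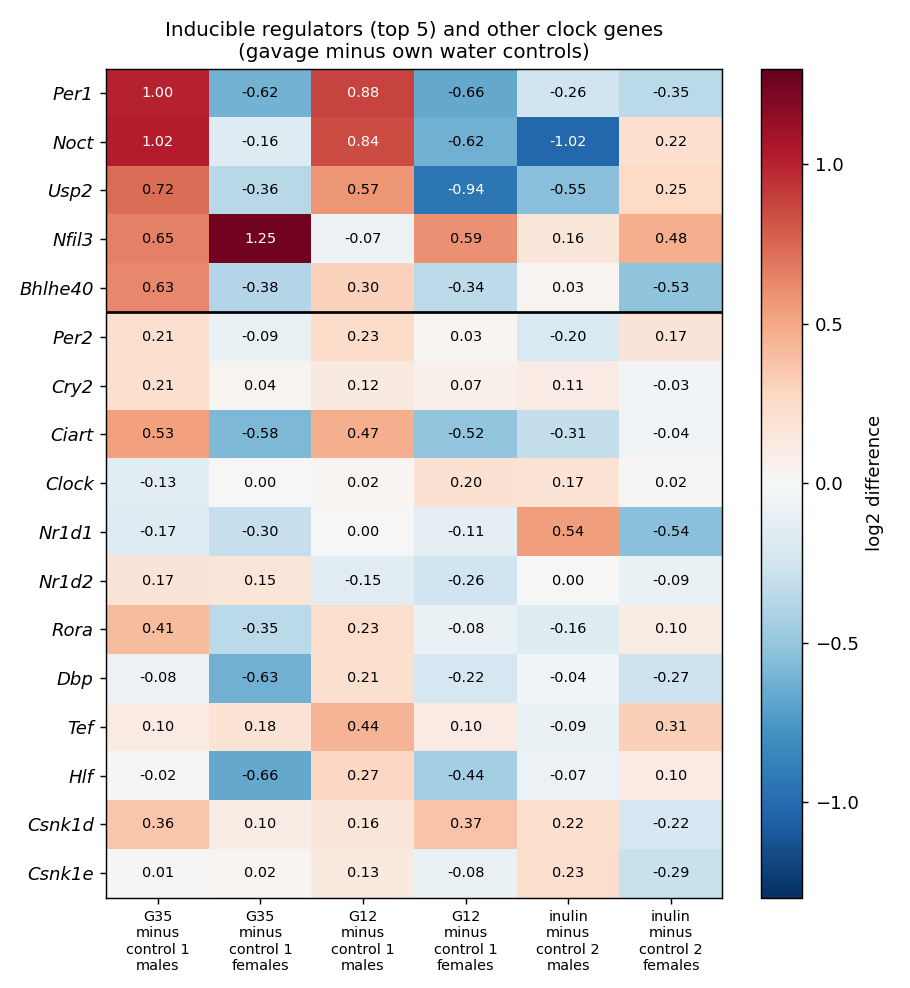
Difference in mean log2 level between gavaged livers and their own water controls, by sex, for the 5 inducible regulators (above the line) and the 12 other measured clock genes. The other clock genes lie between -0.66 and 0.54, and the members, which were chosen on the male G35 difference, between -1.02 and 1.25.

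Of 19 other clock genes listed, 12 were measured, and 0 of the 12 were called in any comparison of a gavage with its own controls. In female G35 livers the lowest p in this list belonged to Hlf and Dbp, activators at the D-box sites that Nfil3 represses, with differences of -0.66 ± 0.21 and -0.63 ± 0.22 (limma, adjusted p = 0.349 and 0.413). Ciart, a repressor of CLOCK and BMAL1, followed at -0.58 ± 0.24, and the repressor Nr1d1 (REV-ERB alpha) at -0.30 ± 0.18. The median over the 12 was -0.043, beside -0.015 for all genes, with 6 higher and 6 lower. In female G12 livers Ciart differed by -0.52 ± 0.24, Hlf by -0.44 ± 0.21, the clock kinase Csnk1d by 0.37 ± 0.20 and Dbp by -0.22 ± 0.22.

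With inulin, Nr1d1 had the lowest p of the list in both sexes, with a difference of 0.54 ± 0.18 in males and -0.54 ± 0.18 in females. The 3 inulin livers lay above the 3 controls in males and below them in females. The test of the sexes against each other gave -1.08 ± 0.25 (female minus male, limma, adjusted p = 0.696, unadjusted p = 0.000232) and was not called.

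Genes that answer the signals known to drive the members were listed by signal. Among glucocorticoid targets (14 of 14 measured), 0 were called with G35, G12 or inulin against their controls in females or with inulin in males. In male inulin livers 13 of the 14 had lower means, with a median of -0.36 beside 0.0076 for all genes, with the lowest p for Ddit4 at -1.14 ± 0.47 and Fkbp5 at -0.42 ± 0.21. In female inulin livers 10 of 14 were lower, with a median of -0.19. In male G35 livers, described without a test, 13 of the 14 had higher means than in control 1 livers, with a median of 0.51. In male G12 livers 11 were higher, with a median of 0.25. Male control 2 livers stood above male control 1 livers for all 14, with a median of 0.63 beside 0.060 for all genes. With slide as a fixed block, Errfi1 (-0.86 ± 0.35 without slide) and Dusp1 (-0.77 ± 0.35) were called lower in female G12 livers (limma, adjusted p = 0.0355 and 0.0394), where 4.55% of all genes were called. That fit includes the array with the patch of low signal. The signal around the probes of list genes was not examined, here or for the lists below.

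Among feeding and insulin targets (10 of 12 measured), 9 of 10 had lower means in female G12 livers, with a median of -0.44 beside 0.0038 for all genes, and 8 of 10 in female G35 livers, with a median of -0.30. Srebf1, the master activator of lipid synthesis, differed by -0.62 ± 0.19 with G12 and was called with slide (limma, adjusted p = 0.0340), with the array that held the patch included. Pfkfb3, whose enzyme sets the pace of glycolysis, was lower by -1.05 ± 0.26 in male inulin livers (limma, adjusted p = 0.808).

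Among acute phase and STAT3 targets (14 of 14 measured), 13 had higher means in female G35 livers, with a median of 0.60 beside -0.015 for all genes, with the lowest p for Saa3 at 0.68 ± 0.25 and Hp at 0.47 ± 0.18. In female G12 livers 13 of 14 were higher as well, with a median of 0.40. Stat3 itself was the 1 lower gene, at -0.89 ± 0.30. It was called with slide (limma, adjusted p = 0.0421), with the array that held the patch included. G35 and G12 share the control 1 livers. The cAMP and fasting targets (12 of 14 measured) had medians of 0.018 with G35 and -0.18 with G12 in females, and Pdk4 was higher by 1.06 ± 0.34 with G35 (limma, adjusted p = 0.373). The immediate early genes (8 of 15 measured) had medians of 0.012 and -0.19, and 0 genes of these 2 lists were called with either decoction in females. In male G35 livers, described without a test, 11 of 12 cAMP and fasting targets had higher means, with a median of 0.545. There 8 of 8 immediate early genes were higher (median 0.47), as were 12 of 14 acute phase targets (0.57) and 8 of 10 feeding and insulin targets (0.15). The median of all genes was -0.0047.

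In the comparison of females with males of the inulin experiment, called list genes were Klf9 (-0.75 ± 0.16), a glucocorticoid-induced factor, Pfkfb3 (-0.93 ± 0.19), Jund (-0.56 ± 0.17), Elovl6 (0.58 ± 0.16) and Fgb (0.43 ± 0.12), with limma's adjusted p between 0.00223 and 0.0359, where 10.9% of all genes were called. The calls of all 5 ended with slide as a fixed block (limma, adjusted p = 0.188 to 0.893). In that fit 2 other feeding and insulin targets were called higher in females, where 400 of 8996 genes were called.

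Over the 30 arrays, with the mean of each sex in each experiment removed, the gene most like Per1 was Ttll5 (r = 0.74), followed by Pfkfb3 (0.73) and Irf2bp2 (0.73). Those most like Noct were Pfkfb3, Usp2 and Per1 (0.68 each), those most like Usp2 were Pitpnc1 (0.70), Phf14 (0.70) and Lrp1 (0.69), and those most like Nfil3 were Fam53c (0.76), Lmo4 (0.71) and Lonrf3 (0.70). Bhlhe40 was most like Klf10 (0.78), an immediate early factor, Kansl1l (0.74) and Terf2ip (0.74). These correlations include the differences between gavages. With all group means removed Klf10 kept 0.77 with Bhlhe40 and Fam53c 0.64 with Nfil3, while Pfkfb3 had 0.22 with Noct, Usp2 0.34 and Per1 0.50. The members were chosen on male livers that enter these correlations, so their likeness to one another with the gavage differences kept is no finding.

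**Figure D4:**
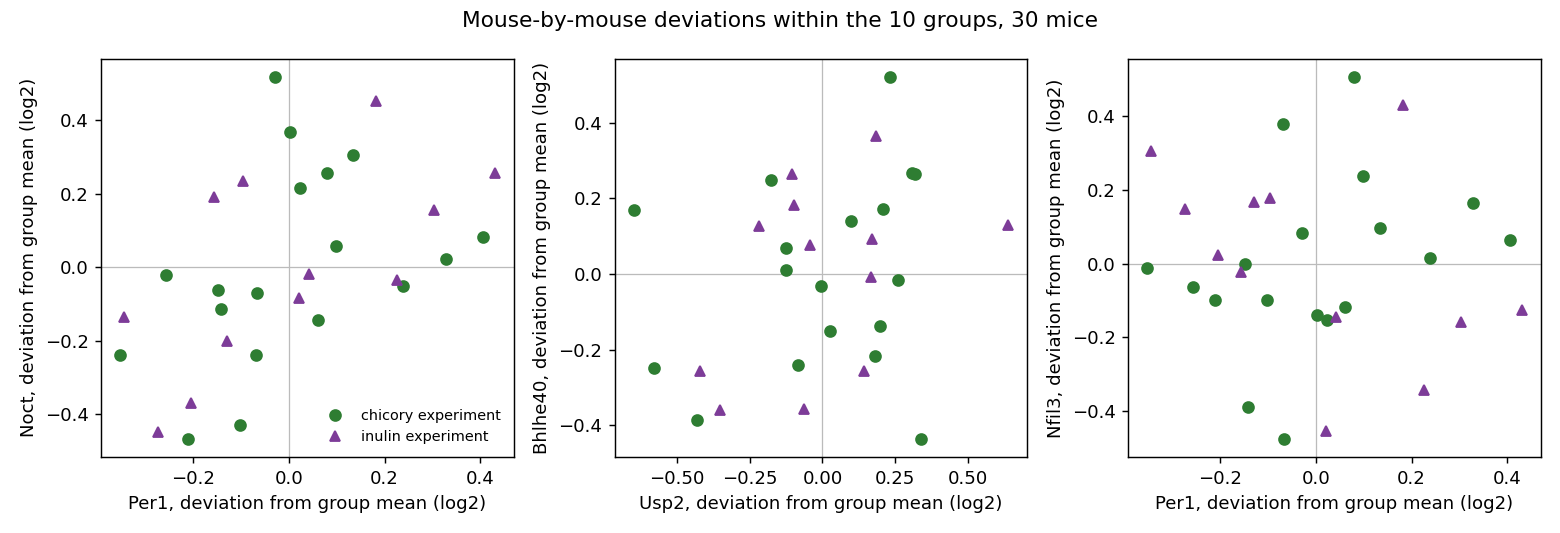
Deviation of each of 30 mice from its group mean, in log2, for 3 pairs of members, by experiment. Per1 and Noct deviated together (r = 0.50), Usp2 and Bhlhe40 less closely (r = 0.28), and Per1 with Nfil3 had an r of -0.029.

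Within groups, mice that were high for Per1 tended to be high for Noct. Over the deviations of 30 mice from their group means, Pearson's r was 0.50 (permutation p = 0.00964, 0.0964 adjusted over 10 pairs) and Spearman's rho was 0.58 (permutation p = 0.00312, adjusted 0.0312), so that the rank correlation was called and Pearson's was not. Without the 2 arrays farthest from the median r was 0.49 and rho 0.56 (adjusted permutation p = 0.0993 and 0.0295). It was 0.40 within the chicory experiment (permutation p = 0.0940, rho 0.56, p = 0.0241) and 0.63 within the inulin experiment (permutation p = 0.0610, rho 0.66, p = 0.0460). With the mean of each replicate number also removed in the chicory experiment, where the numbers count as paired, r was 0.49 and rho 0.57 (adjusted permutation p = 0.0733 and 0.0250). With slide removed as well as the group means, r was 0.35 and rho 0.47 (adjusted permutation p = 0.0997 and 0.103). None of the other 9 pairs was called by either measure over all mice, and Usp2 with Bhlhe40 had an r of 0.28 there and 0.59 with slide removed (adjusted permutation p = 0.0997).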

How the data were processed

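Liver RNA of 30 mice, 1 array per mouse, gave one-colour intensities. Per the submitters' processing notes the arrays were read with Agilent Feature Extraction, with the signal column not given in the sources used here. The deposited intensity values are whole numbers of at least 39 on a linear scale with unequal medians, and no normalization by the authors is visible. From the deposited intensities, log2 values were computed after normexp background correction (offset 50) and quantile normalization. Of 15505 probes, 12544 carried 1 gene symbol, 2961 none and 0 several, and the probe with the highest mean was taken per gene (8996 genes).

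All arrays entered 1 limma fit (3.58.1, R 4.3.3) of 10 groups with 20 residual degrees of freedom, with Benjamini-Hochberg adjustment over all genes, checked on simulated data. The members, the gene lists and the tests were chosen with earlier results of these data known. Named genes are the members and up to 4 genes per list with the lowest p. Likeness was ranked by Pearson's r, with 3 genes per member. Member pairs were tested by 100000 permutations within groups. Slide was added as a fixed block, which left 12 degrees of freedom, or as a random block (consensus correlation 0.386), and a replicate block left 16. Per the labels replicates are separate mice. Residuals of chicory arrays that share a number correlated at 0.12 to 0.71 (45 pairs, median 0.36) and those with other numbers at -0.53 to 0.39 (90 pairs), so numbers count as paired there, from the data and not the labels. In the inulin experiment same numbers gave -0.52 to 0.40 (18 pairs). Other alternatives were other normalizations, limma's trend and robust options, no dim genes, every probe, only the arrays compared and leaving out each array. Slide together with a left-out array was added after seeing the data, because of the patch, as was the removal of replicate numbers from the correlations. Array features per line (86) were inferred as the spacing at which low features recurred. The number of arrays limits the precision.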

Additional observations from a re-analysis of the deposited data

Results flagged for a closer look

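The Per1 means with G35 lay on opposite sides of their controls in the sexes. Its mean was 1.00 log2 higher in male G35 livers than in male control 1 livers and its female counterpart was -0.62, with no overlap in either sex, which sets the sexes 1.61 apart. Noct did the same with G12, at 0.84 in males and -0.62 in females, 1.47 apart. Usp2 did so with G12 as well, at 0.57 in males and -0.94 in females, 1.51 apart, and 1 of its 3 female G12 values comes from the array with a patch of low signal at this probe. These 3 differences between the sexes were not tested, because the male control 1 livers were used in choosing the members. The members were chosen for higher values in male G35 livers, so the male direction is no finding. In the fit without slide none of the 3 female differences was called (limma, adjusted p = 0.384, 0.332 and 0.233). The share of all genes with such opposite differences was not counted.

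Nr1d1 moved in opposite directions with inulin, at 0.54 in males and -0.54 in females, 1.08 apart (male minus female). The test of that difference is given in the report, and it was not called.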

How the results depend on the processing

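None of the members was called for a gavage in the fit of all arrays without slide and without limma's trend and robust options, and the counts moved with these choices. In female G35 livers the genes called numbered 78 with slide as a fixed block, 5 with a random slide block and 2 with limma's trend and robust options, with 1 member (Nfil3, adjusted p = 0.0337 and 0.0460) under each of the last 2. In female G12 livers 409 genes were called with slide fixed and 103 random, with 1 member (Usp2) in each, 295 with slide fixed and without the array that held the patch, with 1 member (Per1), 2 with median centring, 1 with 75th percentile scaling and 0 among only the arrays compared. The Per1 difference there turned to 0.050 with slide fixed and without female control 1 replicate 1. In male inulin livers 1 gene was called with slide random, and averaged over the sexes 4 with slide fixed. Between the sexes of the inulin experiment, 400 genes and 0 members were called with slide fixed (Per1 at 0.83, Nfil3 at -1.37), 527 genes with slide random, 551 genes and 1 member with median centring, where Per1 had an adjusted p of 0.0522, and 544 genes with 75th percentile scaling. Between the sexes with G12 these were 622 with slide fixed, 179 with slide random, 247 with the replicate block, 27 among only the arrays compared and 572 with slide fixed and without the array that held the patch. For control 2 against control 1 in females they were 362 genes with median centring, 354 with 75th percentile scaling, 1352 with every probe, and 0 genes and 0 members among only the arrays compared, where Usp2 was at -1.09. The replicate block changed no call of a member, and among the tested chicory comparisons it moved the count of genes by over 1.5 times between the sexes with G12. For G35 in males, given without a test, the count was 4 with the block and 1 without it. Causes of these shifts were not tested.

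Values that were not called changed sign in these cases. With slide fixed, Bhlhe40 between G35 and G12 in females was 0.12, Usp2 with inulin averaged over the sexes 0.014, Per1 in the inulin difference between the sexes 0.15, Usp2 between the sexes of the inulin experiment 0.62 and Per1 between the sexes with G12 0.017. With slide random, Bhlhe40 between G35 and G12 was 0.065, Per1 in the inulin difference between the sexes 0.023 and Usp2 between the sexes of the inulin experiment 0.037. Bhlhe40 between G35 and G12 was 0.17 with slide fixed and without the array that held the patch. Bhlhe40 with inulin in males was -0.0047 with median centring, and Noct between the female controls was -0.038 with cyclic loess. Among correlations within groups, Per1 with Usp2 was -0.086 and Per1 with Bhlhe40 0.20 with slide removed. Noct with Bhlhe40 was -0.070 and Usp2 with Nfil3 0.035 without the 2 farthest arrays. Per1 with Usp2 was -0.16, Per1 with Nfil3 0.32 and Usp2 with Nfil3 0.043 within the chicory experiment. Per1 with Bhlhe40 was 0.0017, Noct with Bhlhe40 -0.21 and Nfil3 with Bhlhe40 -0.20 within the inulin experiment.

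Leaving out 1 array at a time gave 0 to 16 genes and 0 to 1 members called for G35 in females, 0 to 35 genes for G12 in females, 0 to 15 genes for inulin in males, 0 to 8 averaged over the sexes and 0 to 10 for the difference between the sexes. It gave 604 to 1350 genes and 1 to 2 members between the sexes of the inulin experiment, 36 to 186 genes between the sexes with G12, and 335 to 1046 genes and 0 to 1 members between the female controls. Signs turned for Per1 (-0.081 to 0.25) and Bhlhe40 (-0.30 to 0.15) between G35 and G12 in females, Nfil3 (-0.058 to 0.38) and Bhlhe40 (-0.15 to 0.21) with inulin in males, Noct with inulin in females (-0.0066 to 0.35), Usp2 with inulin averaged over the sexes (-0.25 to 0.014) and Per1 in the inulin difference between the sexes (-0.24 to 0.12). They also turned for Bhlhe40 between the sexes of the inulin experiment (-0.021 to 0.16), Per1 (-0.29 to 0.041), Nfil3 (-0.36 to 0.092) and Bhlhe40 (-0.17 to 0.18) between the sexes with G12, and Noct between the female controls (-0.091 to 0.26). With 3 mice per group and 1 probe per member, differences of this size cannot be separated from mouse-to-mouse spread.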
